A study of Rattus norvegicus with 6 samples.

Results

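Hypothalamic neurons store many of their messengers as large precursor proteins, which are cut into short peptides inside secretory granules, so the transcript of the precursor gene is the starting point of peptide supply. The 7 precursor genes described here are Sst (somatostatin), Npy (neuropeptide Y), Cartpt (CART, the cocaine- and amphetamine-regulated transcript), Tac1 (substance P and neurokinin A), Cck (cholecystokinin), Gal (galanin) and Vip (vasoactive intestinal peptide). They were taken by identifier from the 32402 genes of the table by a rule that uses no measured value, although earlier results of these data were known when the list was made. All 7 were present. The pairing of symbol and identifier came with that choice. No table used here could test it, nor pair the table's other identifiers with symbols, so the receptors of these peptides and the markers of neighbouring nuclei are not analysed here.

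The tissue came from male rats of the Holtzman strain, an outbred laboratory line, and is labelled as the paraventricular nucleus, a hypothalamic cell group that controls pituitary hormones and autonomic output. Furosemide rats received 10 mg/kg of the diuretic, which makes the kidney lose sodium, and then spent 24 h on sodium-poor food with distilled water. Control rats share the strain, sex and tissue, and the labels do not say what they were injected with or fed. Each group had 9 rats in 3 pools of 3, each pool giving 1 library, so a value is an average over 3 rats. The dissection holds neurons, glia and possibly neighbouring tissue. The labelled nucleus could not be checked against its defining markers, and in such tissue fewer cells of a type and less RNA per cell cannot be told apart. Libraries held 20911950 to 22495415 counts, and expression is given as CPM, counts per 1000000 reads of the scaled library size. CPM does not account for transcript length, so levels are compared between libraries for 1 gene, never between genes.

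The peptides have separate sources in the textbook hypothalamus. Galanin is known in magnocellular vasopressin neurons and cholecystokinin in oxytocin neurons of the same nucleus, the cells that project to the posterior pituitary. Somatostatin neurons of the periventricular area restrain growth hormone release, and CART and the tachykinins are made by several hypothalamic cell groups. Neuropeptide Y is best known from hunger-promoting neurons of the arcuate nucleus, and vasoactive intestinal peptide from the suprachiasmatic nucleus, the circadian clock.

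Expression of Sst and Vip is a classic case of control by cyclic AMP through the cAMP response element, which the factor CREB binds. To show where its core lies in these genes, the 7 bases TGACGTC were searched on both strands in RefSeq promoters of build GRCr8, each running from 250 bases before to 50 bases after the annotated start. A promoter was found for 6 of the 7 genes (Sst, Npy, Cartpt, Tac1, Gal and Vip), and Sst, Cartpt and Vip held a match. Over all 33469 promoters of that length, 3.22% did. The site is printed below in capitals with 11 bases on either side, read along the gene's strand. In Sst and Cartpt matches on both strands overlap to give a palindrome, and in Vip a match was found on 1 strand.
Sst, chr11:90461537-90461566, plus strand: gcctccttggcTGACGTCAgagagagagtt
Cartpt, chr2:32991359-32991388, minus strand: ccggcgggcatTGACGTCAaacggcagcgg
Vip, chr1:44470372-44470400, plus strand: gatcaccactgTGACGTCtttcgaggagc
With the annotated start as base 1, the capitals span bases 3 to 10 in Sst, -142 to -135 in Cartpt and -97 to -91 in Vip. These positions depend on the annotated start, which was not checked against a measured start of transcription. A match describes the letters only, and the expression values below say nothing of binding there.

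None of the 6 precursor transcripts with enough counts passed the test for a difference between sodium-depleted and control rats, and Vip had too few to be tested in this fit. Mean CPM after furosemide stood 11.3% above control for the galanin precursor, 11.8% above for cholecystokinin and 17.1% above for neuropeptide Y, in each case with overlapping groups. It stood 4.81% above control for Tac1 and 1.23% above for Cartpt, and the difference was -0.783% for somatostatin. In the edgeR quasi-likelihood test with Benjamini-Hochberg adjustment, 0 of these 6 genes were called at an adjusted p under 0.05, where 0.00% of all 16344 tested genes were. At an unadjusted p under 0.05 there were 0 of 6, against 8.09% of all genes. Over all genes DESeq2 called 38, the edgeR exact test 45 and limma-voom 0, and each called 0 of the members. DESeq2 gave Npy no adjusted p, so that gene could not be called there. In 0 of the 6 genes did the 3 control values lie wholly apart from the 3 furosemide values, against 13.5% of tested genes.

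**Figure D1:**
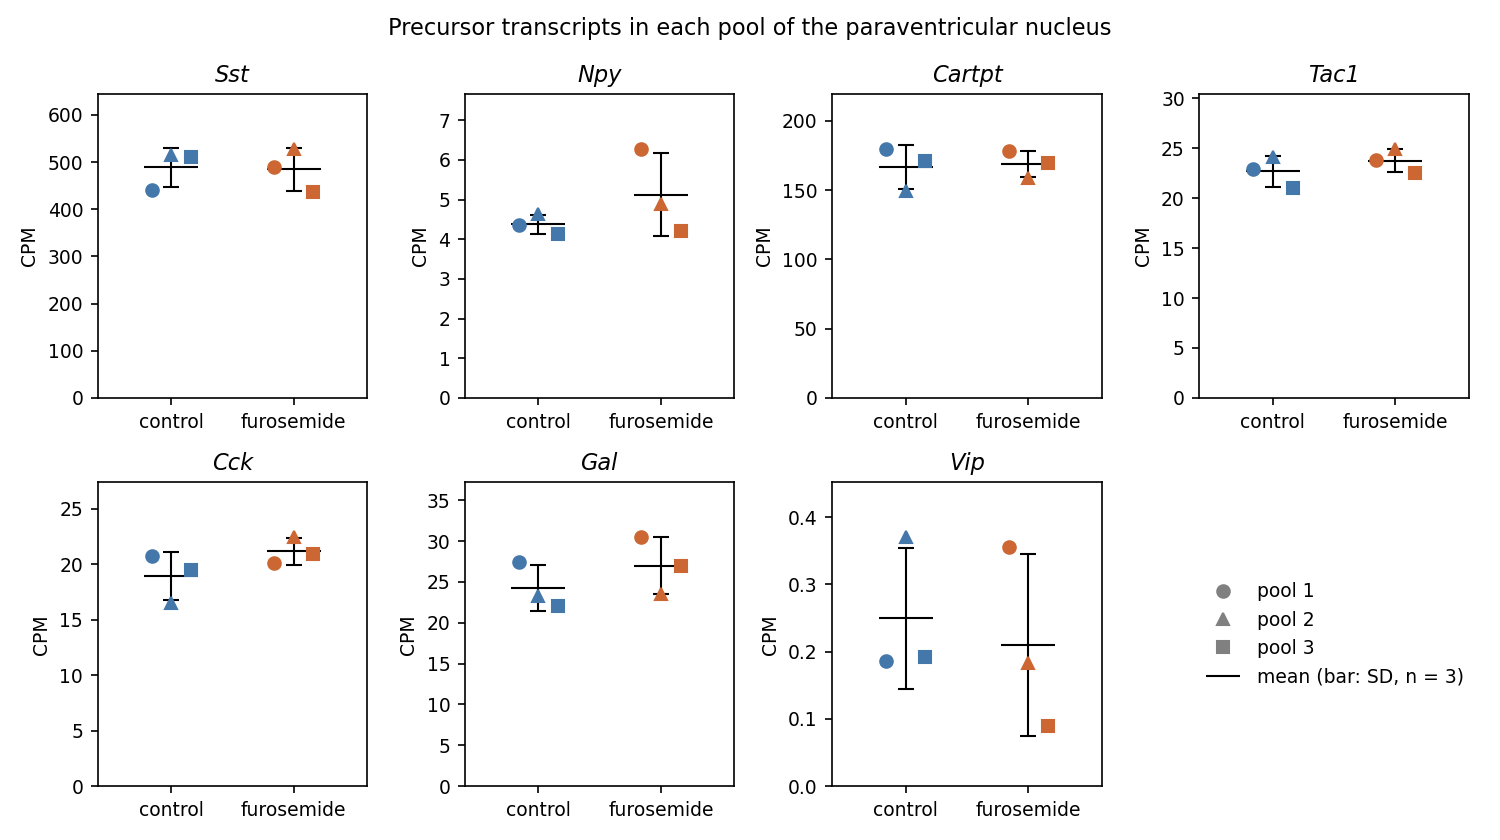
CPM (vertical axes, from 0) of each precursor in the 3 control pools (blue) and 3 furosemide pools (orange), with horizontal lines for means and bars for SD (n = 3). Marker shapes give the replicate number, which the main fit does not use to pair pools. Points of the groups overlap in every panel, and the highest Npy and Gal points are both furosemide 1.

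Gal (ENSRNOG00000015156), the galanin precursor, stood at 27.4, 23.3 and 22.05 CPM in control pools 1, 2 and 3 and at 30.5, 23.5 and 26.99 CPM in furosemide pools 1, 2 and 3. Furosemide 1 was the highest and control 3 the lowest, and control 1 lay above 2 of the furosemide pools. The means were 24.3 ± 2.83 CPM and 26.99 ± 3.51 CPM (SD, n = 3 each), a log2 difference of 0.15 (standard error 0.10, edgeR adjusted p = 0.721). The exact two-sided permutation test over the 6 pools gave p = 0.4, where 0.1 is the smallest it allows. The estimate rested partly on single pools, at 0.06 without furosemide 1 and 0.25 without control 1, neither called by edgeR (adjusted p at least 0.488 over all alternatives).

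Cck (ENSRNOG00000019321), the cholecystokinin precursor, had 20.7, 16.5 and 19.5 CPM in the control pools and 20.1, 22.4 and 20.9 CPM in the furosemide pools. All 3 furosemide values lay above controls 2 and 3, and 1 of them lay below control 1. With means of 18.9 ± 2.16 and 21.1 ± 1.19 CPM (SD, n = 3 each), the log2 fold change was 0.16 with a 95% interval from -0.02 to 0.34. This was the smallest p of the members, with an unadjusted p of 0.0782 and an adjusted p of 0.672 in edgeR. The exact permutation test gave p = 0.2. Control 2, the lowest pool, set much of the difference, which fell to 0.07 without it, while it was 0.23 without control 1.

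Sst (ENSRNOG00000001837), the somatostatin precursor, was at 440, 515 and 511 CPM in the control pools and at 490, 528 and 437 CPM in the furosemide pools. Each group had 1 low pool, control 1 and furosemide 3. The means were 489 ± 41.9 and 485 ± 45.7 CPM (SD, n = 3 each), a log2 fold change of -0.01 with a 95% interval from -0.15 to 0.13 (edgeR adjusted p = 0.987). Its sign depended on which pool was left out, running from -0.08 without control 1 to 0.06 without furosemide 3.

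Cartpt (ENSRNOG00000017712), the CART precursor, gave 180, 149 and 171 CPM in the control pools and 178, 159 and 170 CPM in the furosemide pools. Pool 2 was the lowest of both groups, and the 2 highest values came from control 1 and furosemide 1. The means were 167 ± 15.7 and 169 ± 9.60 CPM (SD, n = 3 each), a log2 fold change of 0.02 with a 95% interval from -0.11 to 0.14 (edgeR adjusted p = 0.969). Without control 2 it was -0.06.

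Tac1 (ENSRNOG00000007374), the precursor of substance P and neurokinin A, measured 22.9, 24.1 and 21.04 CPM in controls and 23.8, 24.9 and 22.6 CPM after furosemide. The groups interleaved, with the lowest value in control 3 and the highest in furosemide 2. Means were 22.7 ± 1.55 and 23.8 ± 1.20 CPM (SD, n = 3 each), a log2 fold change of 0.07 with a 95% interval from -0.08 to 0.22 (edgeR adjusted p = 0.861). It was 0.02 without control 3, 0.03 without furosemide 2, 0.10 without furosemide 3 and 0.11 without control 2.

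Npy (ENSRNOG00000009768), the neuropeptide Y precursor, rested on fewer reads, 86 to 141 counts per library. It stood at 4.36, 4.63 and 4.14 CPM in the control pools and at 6.28, 4.89 and 4.21 CPM in the furosemide pools. Furosemide 1 stood clear of the other 5 pools, while furosemide 3 lay within the control range. The log2 fold change of 0.23 was the largest of the 6, and its 95% interval, -0.10 to 0.55, was also the widest (edgeR adjusted p = 0.745, exact permutation p = 0.3). Without furosemide 1 it was 0.05, and without furosemide 3 it was 0.35.

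Vip (ENSRNOG00000018808), the precursor of vasoactive intestinal peptide, was barely detected, with 4, 8 and 4 counts in the control libraries and 8, 4 and 2 in the furosemide libraries. It did not pass the low-count filter and has no test in the edgeR fit above. The summed 16 control counts correspond to 0.250 CPM with an exact Poisson 95% interval from 0.143 to 0.406, and the 14 furosemide counts to 0.210 CPM with an interval from 0.115 to 0.352. These intervals cover counting error only. The intervals of the groups overlap, and whether more reads would show a difference was not tested.

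**Figure D2:**
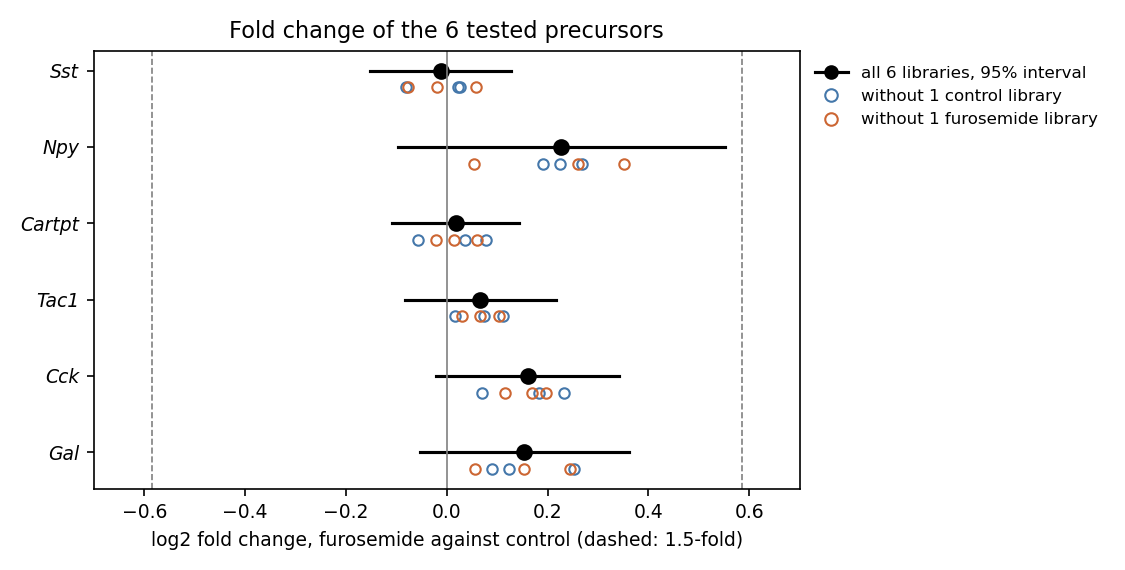
Log2 fold change of furosemide against control (horizontal axis) for the 6 tested precursors, with filled points and lines for the edgeR estimate and its 95% interval over all 6 libraries. Open circles give the estimate without 1 control (blue) or 1 furosemide (orange) library. Every interval includes 0 and lies within the dashed lines at 1.5-fold, and circles of Sst and Cartpt fall on both sides of 0.

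The log2 fold changes of the 6 tested members ran from -0.01 to 0.23 with a median of 0.11, beside a median of 0.000398 over all tested genes. The median size regardless of sign was 0.11 in the members and 0.06 over all genes. The estimate was above 0 in 5 of the 6 members, where it was above 0 in 50.3% of all genes. That number was 4 without furosemide 1, and 6 without control 3 or without furosemide 3. The 95% interval lay within 1.5-fold in both directions for 6 of 6 members, as for 85.1% of all tested genes. Upper bounds were 1.47-fold for Npy, 1.28-fold for Gal, 1.27-fold for Cck, 1.16-fold for Tac1, 1.11-fold for Cartpt and 1.09-fold for Sst. These intervals borrow the spread of other genes. From the gene's own values alone, the standard error of the log2 difference was 1.66 times that of the fit in Sst, 1.58 times in Cartpt and 1.499 times in Gal, 1.28 times in Cck, 1.16 times in Npy and 1.02 times in Tac1. An interval from these own values would be wider by more than these ratios, since it rests on 3 pools a group alone. For Npy, with a standard error of 0.175 from its own values against 0.151 in the fit, the upper limit would then pass 1.5-fold. For the other genes such an interval was not computed. The count of 6 of 6 within 1.5-fold therefore holds for the intervals of the fit only. For Npy the bound of the fit also depended on single pools. Its upper limit passed 1.5-fold without control 1 (1.52-fold), control 2 (1.56-fold), furosemide 2 (1.55-fold) or furosemide 3 (1.597-fold). Bounds of other members moved too, within 1.5-fold. Over the quasi-likelihood alternatives the largest upper limits were 1.37-fold for Gal and 1.34-fold for Cck, both without control 1. For Sst it was 1.18-fold, with robust dispersions, where the lower limit was 0.832-fold.

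Within a group, every tested precursor had a coefficient of variation between pools above the median of genes of like level. Its percentile among such genes was 99.2 for Sst, 98.6 for Cartpt, 96.7 for Gal, 86.5 for Cck, 78.7 for Npy and 59.7 for Tac1. The measure was added after seeing the data, and the dispersion of the edgeR fit, given further on, ranks the precursors differently. This coefficient, the SD as a percent of the mean (root mean square over both groups), was 9.01% in Sst, where counting error alone would give 0.972%. The median of 239 tested genes within 0.5 log2 units of the mean CPM of Sst was 2.50%, and 2 of them varied more than Sst. Cartpt had 7.77% against a median of 2.94%, with 16 of 1117 genes of like level above it. Gal had 12.3% against a median of 5.11%, with 90 of 2752 above it. For these 3 genes the spread stood high in each group taken alone. The percentile among genes of like level was 98.3 in controls and 99.6 after furosemide for Sst, 99.0 and 92.9 for Cartpt, and 94.8 and 96.8 for Gal.

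Among the other precursors, Cck had a coefficient of variation of 9.00% against a median of 5.73% in genes of like level, at the 92.4 percentile in controls and the 54.6 percentile after furosemide. Tac1 had 5.999% against 5.36%, and its counting error alone would give 4.44%. Npy had 15.1% against 11.01%, and its counting error alone would give 9.82%. The spread of Npy was 5.59% in controls and 20.6% after furosemide. These ranks describe 3 pools a group and carry no test. By the shrunken dispersion of the edgeR fit, the measure planned for this comparison, set among the 10656 tested genes of at least 10 CPM, the percentiles were 97.0 for Gal, 91.4 for Cck, 87.3 for Sst, 75.5 for Tac1 and 75.4 for Cartpt.

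**Figure D3:**
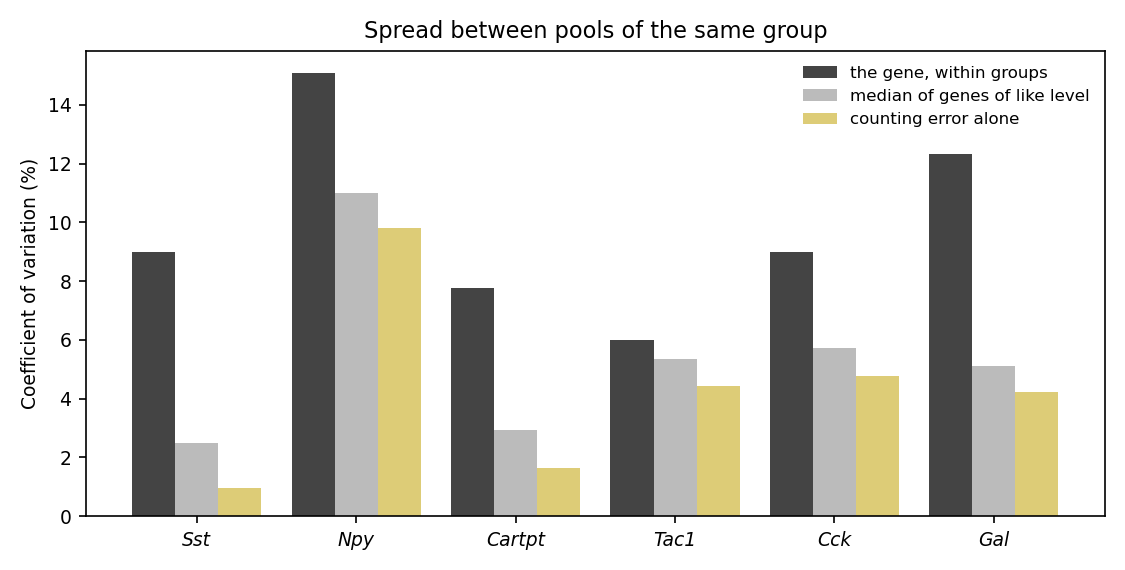
Coefficient of variation in percent (vertical axis, from 0) of each tested precursor between pools of the same group (dark bars), beside the median of genes of like level (grey) and the value counting error alone would give (yellow). Sst reaches 9.01% beside 2.50% and 0.972%, while Tac1 reaches 5.999% beside 5.36% and 4.44%.

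No pair of precursors passed a test of moving together across pools. Over the 6 libraries, the largest of 15 pairwise Pearson correlations of log2 CPM was between Cartpt and Gal (r = 0.65, exact permutation p = 0.182; Spearman's rho = 0.60, exact permutation p = 0.242; adjusted p = 0.746 and 0.743 over the 15 pairs). Without the 2 pools farthest from the median of Cartpt, control 2 and furosemide 2, r was 0.60. By rank the closest pair was Npy and Tac1, with rho = 0.83 (exact permutation p = 0.0583, adjusted p = 0.743 over the 15 pairs) and r = 0.57 (exact permutation p = 0.249). That r was 0.92 without the 2 pools farthest from the median of Npy, furosemide 1 and 2, which left the controls and furosemide 3. Within the controls alone r was 0.98, and within the furosemide pools alone it was 0.41. Sst gave the most negative values, r = -0.61 against Cartpt and -0.61 against Gal (exact permutation p = 0.176 and 0.233, rho = -0.60 and -0.54, p = 0.242 and 0.297). The low Sst pools, control 1 and furosemide 3, were at 90.5% and 89.8% of the gene's mean, and their Gal values were at 107% and 105%. Without these 2 pools, the farthest from the median of Sst, r was -0.72 against Cartpt and -0.81 against Gal. No other pair had a smaller adjusted p. The r values above include any difference between the groups. With each group centred on its own mean, r was 0.68 for Cartpt and Gal and 0.45 for Npy and Tac1. For Sst it was then -0.61 against Cartpt and -0.67 against Gal. The 7 precursors together took 0.0684% to 0.0761% of the counts of a library, with both ends of that range in furosemide pools. That share mostly follows Sst and Cartpt, which had 63566 and 21911 counts over the 6 libraries. No other member had more than the 3355 of Gal.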

How the data were processed

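Libraries of 6 pools were prepared with the TruSeq mRNA kit, which enriches polyadenylated RNA, per the labels' protocols. The authors deposited raw read counts per Ensembl gene as whole numbers. Tools listed per the submitters' processing notes are TopHat, HTSeq, FastQC and edgeR. Their versions, the genome build, the annotation and the strand setting were not given in the sources used here. Columns were matched to libraries by group and replicate number.

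In R 4.3.3 and edgeR 4.0.16, filterByExpr kept 16344 genes with 99.9% of counts. TMM factors were 0.994 to 1.01. The quasi-likelihood F test had group as its only term, with Benjamini-Hochberg adjustment over all genes tested and a threshold of 0.05. Alternatives were other scalings and filters, limma-voom (limma 3.58.1), DESeq2 1.42.0 with default settings, edgeR's exact test, robust and non-legacy fits, thinning, a replicate block and leaving out each library. Standard errors are the fold change over the root of F.

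Members and lists were chosen with earlier results of these data known. The rule named all 7 members, and listed receptors, marker genes and genes of like pattern only where a symbol could be had, which was not so. The coefficient of variation among genes of like level was added after seeing the data. Same-numbered libraries showed no shared deviation from their group means (correlations of -0.04, -0.02 and -0.09, beside -0.05 to 0.09 for differently numbered ones). The main fit did not treat the numbers as pairs, since the labels give no such design. With 3 pools a group these correlations cannot tell whether pools were collected or prepared in numbered sets. Whether pools differ in dissection or preparation date is not given. The edgeR p-values set a difference against the spread between these pools, moderated by the spread of other genes.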

Additional observations from a re-analysis of the deposited data

How the results depend on the processing

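In each of the 18 alternatives 0 precursors were called; Vip was tested in 2 of them, without a filter and in DESeq2, which gave Npy and Vip no adjusted p. Npy, Tac1, Cck and Gal kept their direction in all 18. Sst changed sign, to 0.03, 0.02 and 0.058 without control 2, control 3 or furosemide 3, and ran from -0.080 (without control 1) to 0.058. Cartpt changed sign, to -0.056 and -0.02 without control 2 or furosemide 1, and ran from -0.056 to 0.077 (without control 1). Members at an unadjusted p under 0.05 numbered 2 of 6 without control 1 (Cck 0.0200, Gal 0.0194; 8.65% of all genes tested), and 1 each without furosemide 2 (Gal 0.0214; 7.06%), without furosemide 3 (Npy 0.0354; 7.68%) and with a replicate block (Gal 0.0492; 7.29%), and 0 in the other 14 alternatives. Over all genes, 0 calls became 28 without a low-count filter, 4 with robust dispersions, 1 with the replicate block, 38 in DESeq2 and 45 in the exact test, and 0 to 17 when 1 library was left out, the top value without control 1. The cause was not tested. Vip had a log2 fold change of -0.25 without a filter (edgeR unadjusted p = 0.685). Receptor lists could not be run for lack of symbols. Vip had 30 counts and Npy 622 over the 6 libraries, and whether more reads would narrow their estimates was not tested.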
